A study of Mus musculus with 12 samples.

Results

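The genes described here encode 10 heterogeneous nuclear ribonucleoproteins (hnRNPs) in mouse embryonic stem cells: Hnrnpa1, Hnrnpa2b1, Hnrnpc, Hnrnpd, Hnrnpf, Hnrnph1, Hnrnpk, Hnrnpl, Hnrnpm and Hnrnpu. They were taken by name, with the exonic and intronic rows of their transcripts, by a rule that reads names and no measured value, though earlier results of these data were known when they were chosen. Of 80 transcripts that GENCODE M1 annotates for the 10 genes, 69 had rows in the deposited table, each with 1 exonic and 1 intronic row, among 121429 transcripts in all, of which 83847 could be tied to a gene through M1. Further transcripts of these genes may stand among the unmatched rows, so gene sums and their order cover the matched transcripts only. By annotation 33 of the 69 are protein coding, 13 are retained-intron transcripts, 6 are targets of nonsense-mediated decay (NMD) and 17 are other processed transcripts. All libraries came from DTCM23/49 XY mESCs grown without feeder cells on gelatin in medium with serum and LIF. All cells received 200 µM 4-thiouridine (4sU), a uridine analog that is built into new RNA. After 15, 30 or 60 min RNA was taken as total RNA or, once biotinylated and pulled down on streptavidin beads, as labeled RNA. Each of the 6 groups had 2 biological replicates, which were parts of 1 divided culture passaged 8 times, so p-values measure the spread between these libraries of a single line. No library came from cells without 4sU, so background binding to the beads was not analysed here.

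HnRNPs coat pre-mRNA as it leaves RNA polymerase II and take part in splice site choice, packaging, export, translation and decay of RNA. Most carry RNA recognition motifs or KH domains and bind short degenerate sequences, and several act on the splicing of their own pre-mRNA, which keeps their amount in bounds through retained introns or exons that lead to NMD. They are among the most abundant nuclear proteins of proliferating cells, pluripotent cells included.

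The files hold a signal per transcript, the length-normalized abundance of its exons or introns, scaled so that every library has nearly the same sum. A value is therefore a share of its library, which makes levels of different genes comparable per length but says nothing of the amount of RNA. The methods give sequencing depth only as an average over libraries. In these bulk libraries fewer cells with a transcript and less of it per cell cannot be told apart. The 10 genes held 0.401% to 0.496% of the signal of total libraries and 0.315% to 0.469% of that of labeled libraries. Introns held 6.53% to 7.41% of the signal of the 6 total libraries and 9.35% to 14.8% of that of 4 labeled libraries. In the labeled 15 and 60 min libraries of replicate 2 this share was 7.24% and 6.99%, as in total RNA, so these 2 libraries stand apart and results that rest on them are given with and without them. All 10 embryonic stem cell markers averaged at least 20, with sums of 18663 to 30870.0 in labeled and 18185 to 26340.2 in total RNA. Of 5 fibroblast markers 1 averaged at least 20 and Col3a1 was at 0 throughout, with sums of 26.7 to 43.9 in labeled and 34.0 to 57.3 in total RNA. Of 7 germ layer markers 1 averaged at least 20, and Sox1 and Cdx2 were at 0. Their sums were 24.0 to 195 in labeled and 25.4 to 154 in total RNA.

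All 10 genes were expressed in every library, and in total RNA their exonic signal, summed over transcripts, spanned from 1336 ± 187 for Hnrnpc to 24690.5 ± 4056 for Hnrnph1 (mean ± SD, n = 6). Hnrnph1, which binds G-rich sequences, lay above all others, and Hnrnpa1, a repressor of exon inclusion, came next at 14322 ± 1174, with no overlap between the libraries of these genes. Hnrnpd followed at 10892 ± 1423. Hnrnpa2b1 at 7166 ± 765, Hnrnpu at 6740.3 ± 714 and Hnrnpf at 6586 ± 766 overlapped one another in range, as did Hnrnpm at 3949 ± 594, Hnrnpl at 3607 ± 286 and Hnrnpk at 3152 ± 117. Hnrnpc, which packages pre-mRNA and guards against inclusion of cryptic exons, was lowest without overlap. Over all 34079 genes with exonic rows these totals lay at percentiles 94.9 to 99.9. The order depends on which transcripts are summed. The Hnrnph1 sum holds 15 processed transcripts beside 3 coding ones, which averaged 1726, 1758 and 2162 in total RNA. The 3 transcripts of Hnrnpa1, all coding, averaged 5925, 5345 and 3052. The plot of exonic signal shows all 12 libraries.

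**Figure D1:**
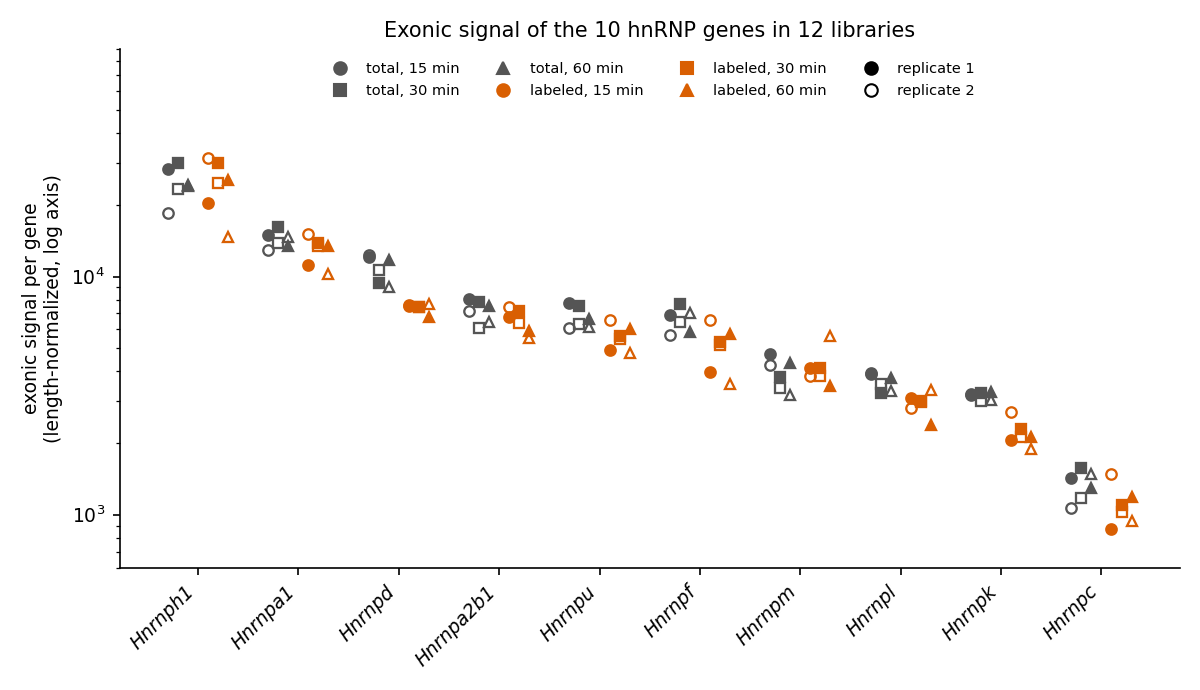
Exonic signal per gene (sum over transcripts, log axis) of the 10 hnRNP genes in each library, total RNA in grey and labeled RNA in orange, with shapes for the labeling time and filled or open points for replicate 1 or 2. Genes are ordered by their mean in total RNA, and the labeled points of Hnrnpd and Hnrnpk lie below all their total points.

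Comparing labeled with total RNA asks how prominent a gene is among newly made RNA relative to its standing level. In a limma fit across all genes with labeling time as a covariate and Benjamini-Hochberg adjustment, the exonic signal of Hnrnpd and Hnrnpk was lower in labeled RNA, that of 0 hnRNP genes was higher, and 8 of 10 did not pass. Over all 13977 genes tested 11.6% were called lower and 5.28% higher. The log2 difference had a median of -0.29 over the 10 genes and -0.05 over all genes. At the level of transcripts 21 of 69 were lower and 2 were higher, against 12% and 5.28% of 45537 transcripts tested. After quantile normalization 9 of 69 (13%) were lower and 2 were higher, against 11.9% and 7.53% of all transcripts, so the larger share of lower transcripts was not kept there. All 69 passed the filter of a mean of 20. The 21 lower transcripts were 9 of 11 of Hnrnpd, 9 of 13 of Hnrnpl, both of Hnrnpk and 1 of 3 of Hnrnpf, and the 2 higher ones were both from Hnrnpl. Transcripts of 1 gene overlap and share reads that RSEM divides between them, so they are not independent of one another. With the libraries blocked in pairs of labeled and total RNA (replicate block), 14 transcripts were lower and 0 were higher. Of all transcripts 6.12% were lower and 3.7% higher there, and 2 of the 10 genes were lower, against 5.83% of all genes. Without the labeled 15 min library of replicate 2, 5 genes were lower, against 15% of all genes. Without both libraries that stand apart 4 were, against 14.7% of all genes: Hnrnpd, Hnrnpf, Hnrnpk and Hnrnpl. With either replicate left out altogether 0 of the 10 genes and 0 of the 69 transcripts were called, and 0 of all genes and transcripts tested were called lower, so this holds for the smaller design as a whole.

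**Figure D2:**
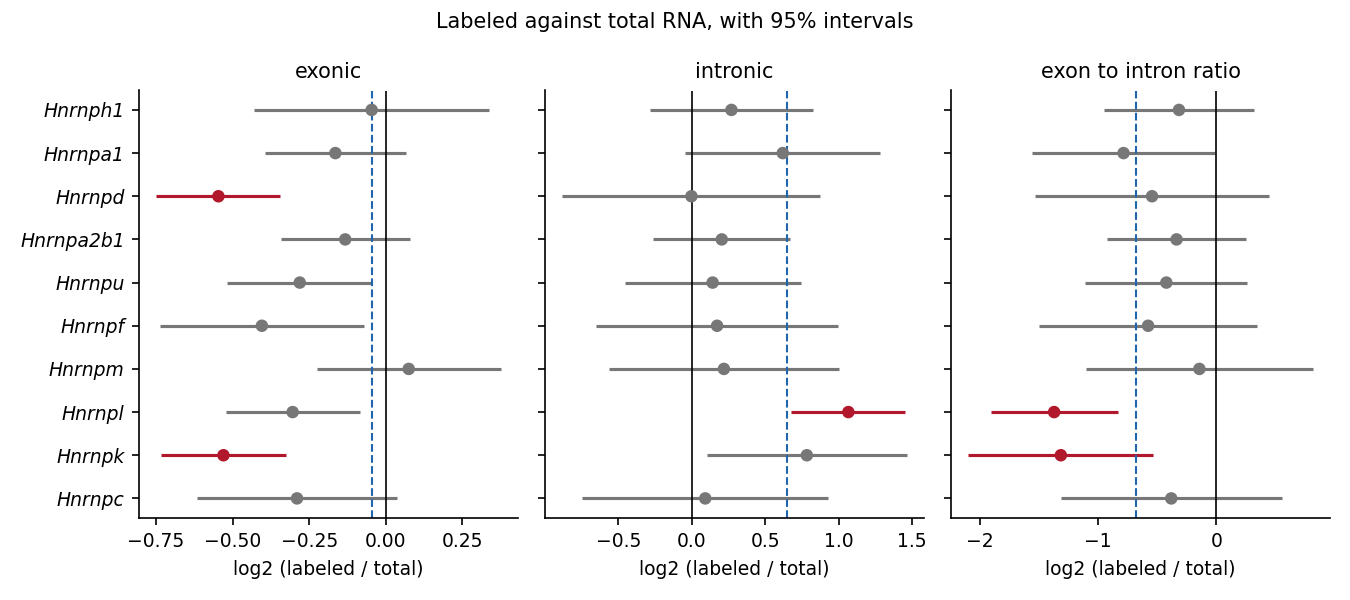
Log2 difference of labeled against total RNA with its 95% interval (limma, 12 libraries) for the exonic signal, the intronic signal and the exon to intron ratio of each gene, on x axes that differ between panels. Red marks an adjusted p under 0.05 and the dashed line is the median of all genes tested. Intronic values sit around a median of 0.65 for all genes, and Hnrnpl stands to its right.

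Hnrnpd (ENSMUSG00000000568, chr5:99955935-99979130, GRCm38.p6) encodes AUF1, which binds AU-rich elements and is known for targeting mRNAs to decay. Its exonic signal ran from 9045 through a median of 11220.4 to 12363 in the 6 total libraries and from 6749.7 through a median of 7492 to 7672 in the 6 labeled libraries. Every labeled library lay below every total library. The labeled signal fell by 0.55 on the log2 scale (SE 0.09, adjusted p = 0.00347), and was lower in 6 of 6 pairs of same time and replicate, at 0.573 to 0.848 of the total value. It was -0.55 without the 2 libraries that stand apart (adjusted p = 0.00470).

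The lower signal of Hnrnpd was shared by its coding, NMD and retained-intron transcripts. Hnrnpd-002, a coding transcript, ran from 507 through a median of 663 to 791 in total RNA and from 364 through a median of 390.5 to 427 in labeled RNA, a difference of -0.69 (SE 0.11, adjusted p = 0.00322). The NMD transcripts Hnrnpd-012 and Hnrnpd-010 differed by -0.65 (SE 0.10, adjusted p = 0.00224) and -0.65 (SE 0.10, adjusted p = 0.00216). The NMD transcript Hnrnpd-004, which had the highest mean of the gene, ran from 1403 through a median of 1766 to 2074 in total RNA and from 1077 through a median of 1187 to 1259 in labeled RNA, a difference of -0.53 (SE 0.11, adjusted p = 0.00794). The groups did not overlap for any of these 4 transcripts. Hnrnpd-004 held 15.8% ± 0.5 of the gene's exonic signal in total RNA and 16.0% ± 0.5 in labeled RNA (SD, n = 6). The 2 transcripts that did not pass were Hnrnpd-007, at -0.48 (SE 0.17, adjusted p = 0.0736), and the low Hnrnpd-008, at -0.30 (SE 0.24, adjusted p = 0.419).

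Hnrnpk (ENSMUSG00000021546, chr13:58391132-58403343) encodes a KH domain protein that binds C-rich RNA and also acts in transcription and translation. Its exonic signal ran from 2999 through a median of 3192 to 3259.9 in the 6 total libraries and from 1894 through a median of 2119 to 2688 in the 6 labeled libraries, again without overlap. The labeled signal fell by 0.53 on the log2 scale (SE 0.09, adjusted p = 0.00402) and was lower in 6 of 6 pairs, at 0.628 to 0.837 of the total value. Of 6 annotated transcripts 2 had rows. Hnrnpk-002 ran from 1582 through a median of 1677 to 1716 in total RNA and from 994 through a median of 1115 to 1411 in labeled RNA, with a difference of -0.53 (SE 0.10, adjusted p = 0.00502), and Hnrnpk-001 differed by -0.53 (SE 0.10, adjusted p = 0.00499). Hnrnpk-002 held 52.6% ± 0.1 of the gene's signal in both kinds of RNA (SD, n = 6). Without the 2 libraries that stand apart the gene's difference was -0.56 (adjusted p = 0.00194).

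Hnrnpl (ENSMUSG00000015165, chr7:28808546-28822268) encodes a protein that binds CA repeats and represses or enhances exons beside them. Its exonic signal ran from 3258 through a median of 3636 to 3927 in the 6 total libraries and from 2369 through a median of 2983 to 3330.4 in the 6 labeled libraries, a difference of -0.30 (SE 0.10, adjusted p = 0.0576) with overlapping groups. Within the gene the transcripts differed in direction. All 5 coding transcripts and the NMD transcript were lower in labeled RNA, by log2 differences of -0.55 to -0.68. Hnrnpl-201, the coding transcript with the largest change, ran from 311 through a median of 367 to 452 in total RNA and from 161 through a median of 227 to 317 in labeled RNA, a difference of -0.68 (SE 0.16, adjusted p = 0.0142), with libraries of both groups overlapping narrowly. Hnrnpl-008, the transcript with the highest mean, ran from 422 through a median of 464 to 529 in total RNA and from 256 through a median of 315 to 359 in labeled RNA without overlap, a difference of -0.59 (SE 0.09, adjusted p = 0.00262).

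The 7 retained-intron transcripts of Hnrnpl did not move as 1 group: 3 were lower, 2 were higher and 2 did not pass. Hnrnpl-002, with 70.7% of its exonic bases inside introns of the coding transcripts, ran from 252 through a median of 293 to 301 in total RNA and from 327 through a median of 405 to 438 in labeled RNA, so that every labeled library lay above every total library, a difference of 0.47 (SE 0.11, adjusted p = 0.0124). Hnrnpl-005, with 65.3% of its bases in such introns, ran from 251 through a median of 310.0 to 319 in total RNA and from 349.8 through a median of 425 to 468 in labeled RNA, also without overlap, a difference of 0.48 (SE 0.11, adjusted p = 0.0150). Hnrnpl-011, with 81.6%, differed by 0.73 (SE 0.27, adjusted p = 0.0862) and did not pass, and Hnrnpl-010, with 53.6%, differed by -0.17 (SE 0.20, adjusted p = 0.589). The 3 lower ones, Hnrnpl-012, Hnrnpl-007 and Hnrnpl-009, had 18.0% to 31.7% of their bases in introns and differed by -0.64, -0.61 and -0.55, of which Hnrnpl-009 alone kept its call in the paired fit. Together the 7 held 41.3% to 45.2% of the gene's exonic signal in total libraries and 49.4% to 58.0% in labeled libraries, which do not overlap. In the paired fit (replicate block) the adjusted p of Hnrnpl-002 was 0.0507 and that of Hnrnpl-005 0.0587, so neither call was kept there. The 7 lower calls that the paired fit did not keep were Hnrnpd-005, Hnrnpd-006, Hnrnpf-202, Hnrnpl-003, Hnrnpl-006, Hnrnpl-007 and Hnrnpl-012, with adjusted p of 0.0600 to 0.0949. Without the 2 libraries that stand apart Hnrnpl-002 and Hnrnpl-005 differed by 0.52 and 0.51 (adjusted p = 0.00631 and 0.00938).

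**Figure D3:**
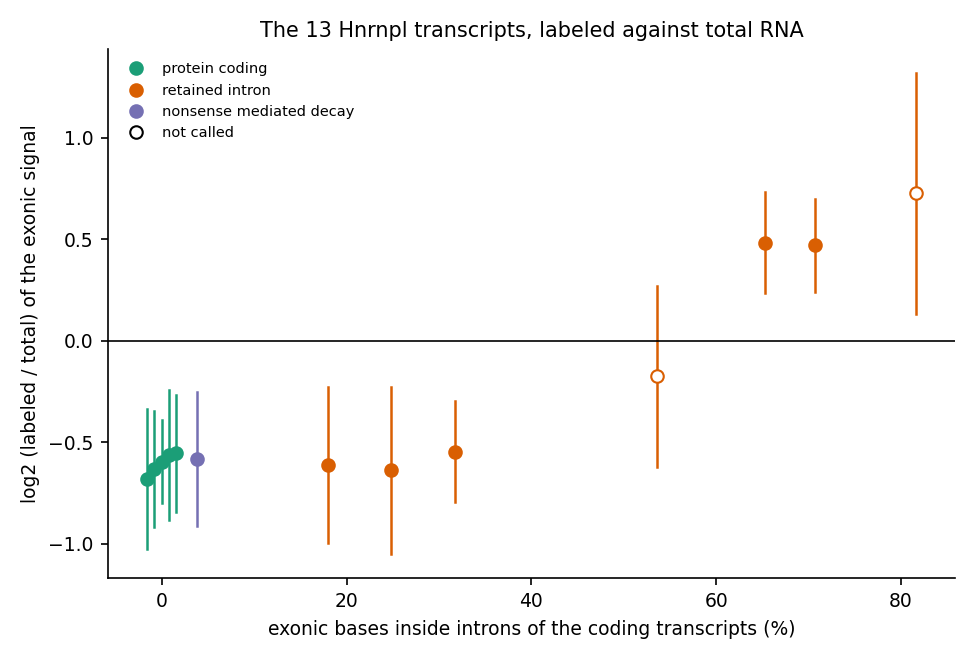
Log2 difference of labeled against total RNA with its 95% interval (limma, 12 libraries) for each of the 13 Hnrnpl transcripts, against the percent of its exonic bases that lie inside introns of the gene's coding transcripts. The 5 coding transcripts have 0% and are spread slightly around 0 so that they can be seen, open points are not called, and the 3 transcripts with 65.3% or more lie above 0.

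Of the 6 retained-intron transcripts of the other genes 0 were called higher and 1 was lower. Hnrnpu has 3, of which Hnrnpu-002, with 72.4% of its bases in introns, differed by 0.02 (SE 0.14, adjusted p = 0.930) and Hnrnpu-003, with 61.8%, by -0.33 (SE 0.14, adjusted p = 0.114). The remaining one, Hnrnpu-006, averaged 858 in total RNA and was not called. All transcripts of Hnrnpu differed by -0.35 to 0.02. Hnrnpm-006 and Hnrnpm-005, with 47.2% and 52.5%, differed by -0.01 (SE 0.35, adjusted p = 0.993) and 0.21 (SE 0.40, adjusted p = 0.747). Hnrnpd-009, with 48.0%, was lower at -0.55 (SE 0.12, adjusted p = 0.0114). No test compared these transcripts with those of Hnrnpl.

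The RefSeq promoters of the 3 genes with called changes are shown to place them in the genome and to let their letters be compared. Each line gives the 250 bases before an annotated start in GRCm38.p6, 5′ to 3′ on the gene's strand. Capitals mark the CCAAT box, the GC box GGGCGG, the TATA motif TATAAA and the E-box CACGTG wherever either strand holds them. The windows lie at chr5:99978939-99979188 (minus strand), chr13:58402118-58402367 (minus strand) and chr7:28810640-28810889 (plus strand). By the gene coordinates given above, the Hnrnpk and Hnrnpl windows lie inside the gene and the Hnrnpd window lies partly inside it.
Hnrnpd promoter: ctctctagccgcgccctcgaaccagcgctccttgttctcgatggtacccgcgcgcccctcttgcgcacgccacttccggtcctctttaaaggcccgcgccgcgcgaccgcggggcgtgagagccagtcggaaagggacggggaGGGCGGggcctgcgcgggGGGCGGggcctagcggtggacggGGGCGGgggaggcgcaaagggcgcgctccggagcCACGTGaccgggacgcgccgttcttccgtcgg
Hnrnpk promoter: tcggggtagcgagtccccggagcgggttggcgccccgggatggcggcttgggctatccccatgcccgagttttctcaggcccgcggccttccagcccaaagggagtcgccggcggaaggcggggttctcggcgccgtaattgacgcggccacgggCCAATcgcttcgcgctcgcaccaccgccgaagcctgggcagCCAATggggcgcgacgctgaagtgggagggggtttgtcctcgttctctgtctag
Hnrnpl promoter: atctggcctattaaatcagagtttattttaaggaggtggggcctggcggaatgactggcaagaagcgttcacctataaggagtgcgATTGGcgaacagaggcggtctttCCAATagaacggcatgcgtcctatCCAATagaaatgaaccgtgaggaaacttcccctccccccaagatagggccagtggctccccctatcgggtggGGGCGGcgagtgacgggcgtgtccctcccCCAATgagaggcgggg
GC content was 74.4% for Hnrnpd, 69.2% for Hnrnpk and 56.4% for Hnrnpl. The Hnrnpd window held GGGCGG 3 times and CACGTG 1 time, that of Hnrnpk held CCAAT 2 times, and that of Hnrnpl held CCAAT 4 times and GGGCGG 1 time. CCAAT was present in 11 of 18 promoters of the 10 genes and in 33.8% of all 32851 promoter windows of this length, and GGGCGG in 11 of 18 and 32.7%. TATAAA was present in 1 of 18 and 12.4%, and CACGTG in 2 of 18 and 6.02%. Windows of 1 gene can overlap, as those of Hnrnpa2b1 and Hnrnph1 do, and a match in these letters is no evidence of binding.

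Intronic signal stands for unspliced RNA, and labeled RNA held more of it across the genome: 32.3% of 9117 genes tested were called higher and 0.329% lower, with a median log2 difference of 0.65. Of the 10 hnRNP genes 1, Hnrnpl, was higher and 0 were lower, and their median difference was 0.21. Hnrnpl introns ran from 676 through a median of 745 to 847 in the 6 total libraries and from 1321 through a median of 1601 to 1839 in the 6 labeled libraries, without overlap, and the labeled value was 1.67 to 2.66 times the total value over the 6 pairs. The difference was 1.07 (SE 0.18, adjusted p = 0.00139). With intronic values rescaled to a fixed sum per library, which lowers the median over all genes to 0.11, it was 0.53 (adjusted p = 0.0423), and with quantile normalization, where that median is -0.02, 0.59 (adjusted p = 0.0213). In the paired fit (replicate block) Hnrnpl and Hnrnpk were higher, against 41.8% of all genes. The call of Hnrnpl was not kept without replicate 1 as a whole, where other genes still passed. The median difference of the 10 genes was 0.015 there, beside 0.29 for all genes. Introns of 1 Hnrnpl transcript are often exons of another. A further fit kept introns with at most 5% of bases exonic elsewhere. For Hnrnpl it kept only the retained-intron transcripts Hnrnpl-009 and Hnrnpl-007. Their introns averaged 15.4 and 0.673 in total RNA, beside 752 for the whole gene, so that fit could check little of the gene's intronic signal.

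Hnrnpl was the gene of the 10 whose intronic share, the intronic part of its exonic and intronic signal, was highest in labeled RNA. This share ran from 15.0 through a median of 17.8 to 19.4 percent in the 6 total libraries and from 28.6 through a median of 36.4 to 39.9 percent in the 6 labeled libraries. In the labeled 15 and 60 min libraries of replicate 2 it was 31.9% and 28.6%, still above every total library. For Hnrnpk the share ran from 3.55 through a median of 5.24 to 5.81 percent in the 6 total libraries and from 6.05 through a median of 13 to 19.0 percent in the 6 labeled libraries, with the same 2 libraries lowest among the labeled ones at 6.05% and 6.58%. These were the 2 of 10 genes whose shares did not overlap between labeled and total RNA. How many of all genes show this was not counted, so the 2 of 10 cannot be set against all genes. The limma call for intronic signal, a different measure, was higher in labeled RNA for 32.3% of genes tested. For the other 8 genes the shares overlapped, and for Hnrnpc, Hnrnpd, Hnrnpf, Hnrnpm and Hnrnpu at least 1 of these 2 labeled libraries lay below every total library.

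**Figure D4:**
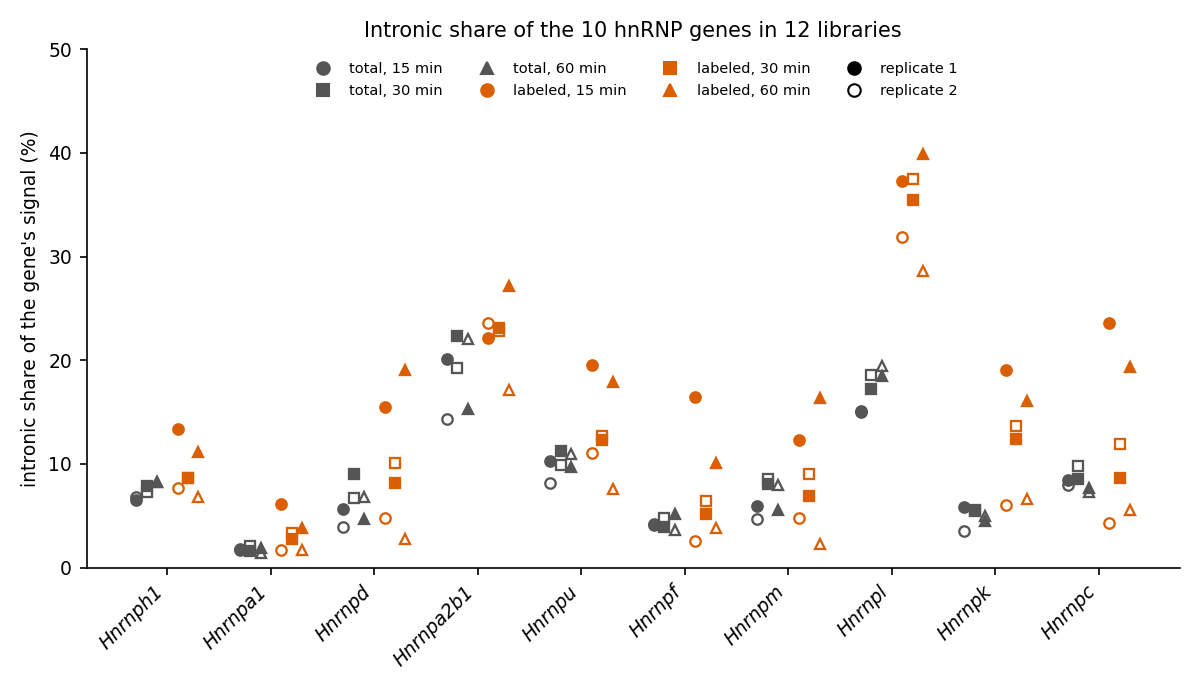
Intronic share of the summed exonic and intronic signal of each hnRNP gene in percent, in 12 libraries, with colors and shapes for RNA and labeling time and open points for replicate 2. Hnrnpl lies between 28.6% and 39.9% in labeled RNA and between 15.0% and 19.4% in total RNA, and in 7 of the 8 genes beside Hnrnpl and Hnrnpk the open orange points at 15 and 60 min lie among or below the grey ones.

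In the fit of the exon to intron ratio, in which the scaling of a library cancels except through the pseudocount, Hnrnpl and Hnrnpk were lower in labeled RNA and 0 genes were higher, against 26.8% lower and 0.259% higher of 7731 genes tested. The ratio of Hnrnpl ran from 4.15 through a median of 4.61 to 5.67 in the 6 total libraries and from 1.51 through a median of 1.75 to 2.5 in the 6 labeled libraries, and its log2 value fell by 1.37 (SE 0.25, adjusted p = 0.00516). That of Hnrnpk ran from 16.2 through a median of 18.1 to 27.1 in the 6 total libraries and from 4.25 through a median of 6.71 to 15.5 in the 6 labeled libraries, and its log2 value fell by 1.31 (SE 0.37, adjusted p = 0.0196). Groups did not overlap for either gene. The median over the 10 genes was -0.48, and -0.68 over all genes. The call of Hnrnpk was lost without the total 15 min library of replicate 2 (-1.21, adjusted p = 0.0547) and without the labeled 30 min library of replicate 2 (-1.29, adjusted p = 0.0560), and that of both genes without replicate 1 as a whole.

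The number of hnRNP genes called for introns moved with the 2 libraries that stand apart. Without both, 8 of 10 genes were higher in labeled introns and 9 of 10 were lower in the exon to intron ratio, but so were 8303 of 9343 and 6497 of 7906 genes tested, and the median intronic difference of all genes was 1.04. Without the labeled 15 min library of replicate 2 alone the counts were 3 and 4, against 53.6% and 61.9% of all genes tested, and without the 60 min one alone 4 and 3, against 54.8% and 39.6%. Hnrnpa2b1, whose B1 and A2 proteins sort RNA and act in splicing, was the gene that passed in neither. Its introns differed by 0.30 there (adjusted p = 0.138). The part of these 2 libraries' overall intronic share in the difference was not tested.

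Hnrnpa1 (ENSMUSG00000046434, chr15:103239943-103246698) ran from 12929 through a median of 14205 to 16186 in the 6 total libraries and from 10253 through a median of 13429.9 to 15027 in the 6 labeled libraries, a difference of -0.16 (SE 0.10, adjusted p = 0.303). Its introns held the smallest share of signal of the 10 genes, 1.72% ± 0.223 in total and 3.23% ± 1.67 in labeled RNA (SD, n = 6). The gene has many processed copies in the genome, and how reads shared with them were assigned is not given, so its level is uncertain. Of its 3 coding transcripts Hnrnpa1-202 averaged the highest in total RNA, 5925 ± 814 against 5345 ± 1148 for Hnrnpa1-201, but not in labeled RNA, 4621 ± 1228 against 4879 ± 1287 (SD, n = 6). It ran from 5015 through a median of 6010.2 to 7134 in total RNA and from 2848 through a median of 5048 to 6030.1 in labeled RNA, a difference of -0.40 (SE 0.18, adjusted p = 0.150). Hnrnpa1-201 differed by -0.15 (SE 0.20, adjusted p = 0.640) and Hnrnpa1-203 by 0.15 (SE 0.19, adjusted p = 0.623). The 3 transcripts share most of their sequence, so the division of reads between them is uncertain. Hnrnpa1-202 held 41.2% ± 2.69 of the gene's signal in total RNA and 35.4% ± 5.15 in labeled RNA (SD, n = 6).

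Hnrnpa2b1 (ENSMUSG00000004980, chr6:51460434-51470048) ran from 6083 through a median of 7329.7 to 8011 in the 6 total libraries and from 5543 through a median of 6589 to 7443 in the 6 labeled libraries, a difference of -0.13 (SE 0.10, adjusted p = 0.369). Its leading transcript Hnrnpa2b1-203 held 53.5% ± 5.1 of the signal in total RNA (SD, n = 6) and ran from 3248 through a median of 3603 to 4638 in total RNA and from 2627 through a median of 3369.6 to 4245 in labeled RNA. Its 3 transcripts disagreed in their introns: those of Hnrnpa2b1-201 and Hnrnpa2b1-202 averaged 753 and 855 in total RNA and those of Hnrnpa2b1-203 73.3. In M1 27.1% and 37.0% of the intron bases of the first pair are exonic in another transcript, and 0.73% of those of Hnrnpa2b1-203, so the gene's intronic share of 14.3% to 22.4% in total RNA can include exonic signal. With introns of Hnrnpa2b1-203 alone the intronic difference was 0.88 (adjusted p = 0.0916), in place of 0.20 (SE 0.22, adjusted p = 0.460).

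Hnrnpc (ENSMUSG00000060373, chr14:52073377-52104039) ran from 1071 through a median of 1361 to 1564 in the 6 total libraries and from 868 through a median of 1062 to 1486 in the 6 labeled libraries, a difference of -0.29 (SE 0.15, adjusted p = 0.205). Its 2 transcripts with rows, Hnrnpc-203 and Hnrnpc-202, differed by -0.34 (SE 0.14, adjusted p = 0.129) and -0.23 (SE 0.16, adjusted p = 0.348). Its labeled introns ranged from 55.5 to 285, with the 4 libraries of 15 and 60 min at the ends of the range, where replicate 1 was high and replicate 2 low, and the total introns lay inside that range at 93.1 to 146. The intronic difference was 0.09 (SE 0.39, adjusted p = 0.859).

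Hnrnpf (ENSMUSG00000042079, chr6:117900340-117925622) and Hnrnph1 (ENSMUSG00000007850, chr11:50375257-50386528) encode related proteins that bind G-tracts near splice and polyadenylation sites. Hnrnpf ran from 5661 through a median of 6640.1 to 7676 in the 6 total libraries and from 3553 through a median of 5238 to 6589 in the 6 labeled libraries, a difference of -0.40 (SE 0.15, adjusted p = 0.0884), and without the 2 libraries that stand apart -0.41 (adjusted p = 0.0291). Its leading transcript Hnrnpf-202 was lower, from 2173 through a median of 2377 to 2738 in total RNA and from 1295 through a median of 1808 to 2294 in labeled RNA, by -0.47 (SE 0.14, adjusted p = 0.0434), a call that the paired fit (replicate block) did not keep (adjusted p = 0.0904). Hnrnph1 ran from 18425 through a median of 24074 to 29988 in the 6 total libraries and from 14608 through a median of 24981 to 31536 in the 6 labeled libraries, a difference of -0.05 (SE 0.18, adjusted p = 0.884). Its 18 transcripts, 3 coding and 15 processed, differed by -0.27 to 0.14 and 0 were called, although Hnrnph1-008 holds 60.8% of its exonic bases in coding introns. By limma at an unadjusted p under 0.05 there were also 0. The labeled libraries of replicate 2 were its highest at 15 min, 31536, and its lowest at 60 min, 14608.

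Hnrnpm (ENSMUSG00000059208, chr17:33646233-33685458), which binds GU-rich introns, was the 1 gene of the 10 with a positive exonic difference, 0.08 (SE 0.14, adjusted p = 0.741), and ran from 3183 through a median of 4018 to 4726 in the 6 total libraries and from 3463 through a median of 3980.5 to 5654 in the 6 labeled libraries. Without the labeled 60 min library of replicate 2, its highest value, the difference was -0.04, and without the total 60 min library of replicate 2 -0.0029. Its leading transcript Hnrnpm-008 differed by 0.12 (SE 0.16, adjusted p = 0.651). Hnrnpu (ENSMUSG00000039630, chr1:178321108-178338891), which binds chromatin and nascent RNA and is known as SAF-A, ran from 6079.6 through a median of 6492 to 7708 in the 6 total libraries and from 4773 through a median of 5538 to 6598 in the 6 labeled libraries, a difference of -0.28 (SE 0.11, adjusted p = 0.0957). Its leading transcript Hnrnpu-004, a processed transcript, ran from 1683 through a median of 2009 to 2405 in total RNA and from 1159.8 through a median of 1669 to 2093 in labeled RNA, a difference of -0.35 (SE 0.16, adjusted p = 0.146).

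Labeling time was compared to ask whether labeled RNA of these genes changes as 4sU is present for longer. In a limma fit of 6 groups 0 of 10 genes were called between 60 and 15 min for labeled exons, for labeled introns or for the difference of labeled against total exons between these times, and 0 had an unadjusted p under 0.05. Over all genes 0% were called in each of the 3 contrasts, which rest on 2 libraries a group. Exonic differences of 60 against 15 min ranged from -0.40 for Hnrnph1 (95% interval -1.11 to 0.32) to 0.15 for Hnrnpm (95% interval -0.40 to 0.71). For Hnrnpd, whose labeled libraries were the closest to each other, the interval was -0.46 to 0.31. Intervals of this width leave room for changes of either sign.

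Rates of synthesis, processing and degradation were estimated from the same values to describe how fast RNA of each gene is made, spliced and lost, with no test. Synthesis is the labeled exonic signal per hour of labeling, processing is synthesis over the total intronic signal, and degradation is synthesis over total exonic minus total intronic signal. As each library has the same sum, the labeled signal does not grow with time and a rate falls with labeling time by construction: synthesis at 15 min was 3.49 to 5.19 times that at 60 min, against a median of 4.23 over 7731 genes. Rates averaged over the 3 times therefore rank genes and carry no absolute half-life. Such an average rests most on the 15 min values, which are the largest. The labeled 15 min library of replicate 2, which stands apart, is among them.

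Hnrnpa1 had the highest processing rate of the 10, 122 (107 in replicate 1 and 139.6 in replicate 2) per hour, at percentile 97.4 of all genes with a rate. The lowest were Hnrnpl, 9.54 (9.82 in replicate 1 and 9.31 in replicate 2), and Hnrnpa2b1, 9.56 (8.07 in replicate 1 and 12.2 in replicate 2), both at percentile 40.7. In both genes introns of some transcripts hold exonic bases of others. The same limit applies to Hnrnph1, with up to 64.1% of intron bases (Hnrnph1-010), and to Hnrnpu, with up to 36.2% (Hnrnpu-004). Hnrnpu had 17.7 (14.1 in replicate 1 and 23.5 in replicate 2), and the other 6 genes lay between 22.3 for Hnrnpc and 42.3 for Hnrnpf. The median over all genes was 11.9. Replicate 2 gave the higher processing rate in 9 of 10 genes, and Hnrnpl was the exception.

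Degradation rates spanned a narrower range, 1.66 to 2.83 per hour, with a median of 2.21 against 2.77 over all genes. By the average Hnrnpd was at 1.66 (1.68 in replicate 1 and 1.65 in replicate 2), at percentile 4.83, and Hnrnpk at 1.77 (1.65 in replicate 1 and 1.88 in replicate 2), at percentile 7.69. The order differed between replicates: in replicate 1 Hnrnpf (1.63) and Hnrnpk lay below Hnrnpd. These rates use the labeled and total exonic values compared above and are no second line of evidence. Hnrnpa2b1 had 2.83 (2.69 in replicate 1 and 2.99 in replicate 2), with 2.18 for Hnrnpa2b1-203 alone, and Hnrnph1 had 2.64 (2.14 in replicate 1 and 3.45 in replicate 2), the highest value in replicate 2. Synthesis ran from 2632 (2287 in replicate 1 and 2976 in replicate 2) for Hnrnpc to 59395 (55435 in replicate 1 and 63356 in replicate 2) for Hnrnph1.

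**Figure D5:**
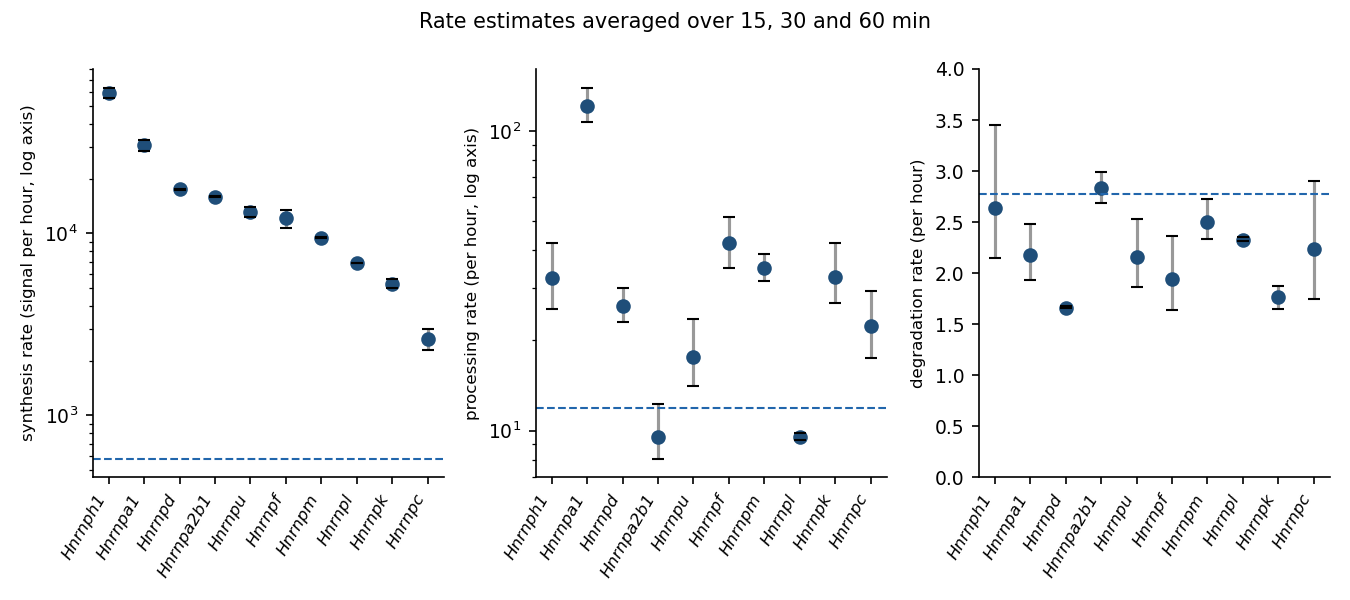
Synthesis, processing and degradation rates of the 10 hnRNP genes averaged over 15, 30 and 60 min, with points for the mean of both replicates, bars that end at the value of each replicate and a dashed line at the median of all genes (synthesis and processing on log axes). Hnrnpa1 lies highest in processing with Hnrnpl and Hnrnpa2b1 lowest, and in degradation the means of Hnrnpd and Hnrnpk are the lowest, with bars that overlap those of Hnrnpf.

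By transcript, 67 of 69 had a processing rate at all 3 times, and Hnrnpl-007 and Hnrnpu-002 had no intronic signal in total RNA at 1 or more times. Rates ran from 1.07 for Hnrnpd-008, a processed transcript with more intronic (61.9) than exonic (36.0) signal in total RNA, to 168 for Hnrnph1-004, another processed transcript, with a median of 29.8. For Hnrnph1-004 replicates gave 123 and 283. Within Hnrnpa2b1 the rate was 4.14 and 5.30 for the transcripts whose introns hold exons of others and 114 for Hnrnpa2b1-203. Within Hnrnpl the coding transcripts Hnrnpl-001, Hnrnpl-003, Hnrnpl-004 and Hnrnpl-201 had 5.44 to 8.96, and 29.6% to 35.1% of their intron bases are exonic in another transcript. The leading transcript Hnrnpl-008, with 18.3% of such bases, had 30.4, and Hnrnpl-009, with 0%, had 49.9, so the low rate of the gene as a whole is not that of each transcript.

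Other hnRNP-related genes and SR genes, which encode splicing factors rich in serine and arginine, give the setting. Of 18 hnRNP-related genes 8 were lower and 1 was higher in labeled exons, with a median of -0.24. Pcbp2, which like Hnrnpk has KH domains and binds C-rich RNA, differed by -0.91 (SE 0.16, adjusted p = 0.00371), Hnrnpa0 by -0.89 (SE 0.23, adjusted p = 0.0245) and Hnrnpul1, related to Hnrnpu, by -0.76 (SE 0.09, adjusted p = 7.13e-04). Rbmx, an X-linked RNA-binding protein gene, was higher by 0.53 (SE 0.15, adjusted p = 0.0367). Of 12 SR genes 1 was lower, Srsf9, by -0.73 (SE 0.17, adjusted p = 0.0135), and 0 were higher. In introns 2 of 15 hnRNP-related genes tested were higher, Cirbp by 1.24 (SE 0.28, adjusted p = 0.00503) and Ptbp1, a repressor that binds polypyrimidine tracts, by 1.00 (SE 0.26, adjusted p = 0.00979), and 3 of 12 SR genes were, Srsf3, Srsf7 and Srsf9, by 0.79 to 0.95. Median intronic differences were 0.62 and 0.34, beside 0.65 for all genes. No gene of these lists was called lower in introns. The exon to intron ratio was lower for 7 of 15 and 2 of 12, with Ptbp1 at -1.61, Pcbp2 at -1.48 and Cirbp at -1.46, and Srsf9 at -1.68 and Srsf7 at -0.81.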

How the data were processed

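The deposited table holds, per the labels and methods, values made from single-end reads by the authors: reads that STAR 2.5.0 placed on rRNA were set aside, and STAR placed the others on exon and intron sequences, which RSEM quantified, with mm10 named as the build. The deposited signal is a length-normalized abundance, values of 1 or less are missing and were taken as 0, and no count is given. The scaling is not described in the sources used here and was read from the values.

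Transcripts were matched by identifier to GENCODE M1, which held 83847 of 121429, and gene sums cover these. M1 lies on mm9 and served for names, types, lengths and the overlap of exons and introns between transcripts of a gene. The coordinates and promoters printed are those of RefSeq on GRCm38.p6. limma 3.58.1 in R 4.3.3 was fitted to log2(value + 1) with a mean-variance trend over all features with a mean of at least 20, and p-values were adjusted across all of them by the Benjamini-Hochberg method at 0.05. On this scale the change of a low value comes out too small. Other steps used Python 3.11.15, pandas 2.3.3 and numpy 2.4.6. The fit was tested on simulated data. A paired fit of labeled against total RNA had each combination of time and replicate number as a replicate block, since the replicate number was taken to mark the culture. For the contrasts between labeling times the block was the replicate number alone. The deviations of the labeled and total library of 1 replicate number had correlations of -0.0695, 0.0480 and -0.188 over genes at 15, 30 and 60 min. The members and lists were chosen with earlier results of these data known. Named were the 10 genes, in each gene the transcript with the highest mean, the called transcripts with the largest changes (up to 5 in each direction), those with the highest and lowest processing rate, and of each further list up to 3 called genes in each direction. Further transcripts of the 10 genes were named after their values were seen. A transcript sequence is not reported here. Alternatives are given in the closing section.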

Additional observations from a re-analysis of the deposited data

Results flagged for a closer look

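In the 6 labeled or the 6 total libraries of a gene or named transcript, 6 of 78 groups had a library far from the others by Dixon's test, which chance gives in about 1 of 20 groups, and all 6 lay in labeled RNA at 60 min. The library of replicate 2 at 60 min, which stands apart in its overall intronic share (6.99%), gave the lowest Hnrnpa2b1 intronic signal, 1142 with the nearest at 1886. It gave the highest exonic signal of Hnrnpm, 5654 with the nearest at 4148, and of its leading transcript Hnrnpm-008, 1808 with the nearest at 1231. It also gave the lowest value of Hnrnpd-012, 744 with the nearest at 845, and the highest of Hnrnpd-008, 58.6 with the nearest at 28.1. The library of replicate 1 at 60 min gave the lowest exonic signal of Hnrnpd, 6749.7 with the nearest at 7449.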

How the results depend on the processing

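Calls were recomputed with a pseudocount of 20, without the filter, after rescaling exons or introns to a fixed sum, after quantile normalization, in the paired fit and with each replicate or library left out, and 2 alternatives (both libraries that stand apart left out, and introns free of other transcripts' exons) were added after the data were seen. Of 250 recomputed counts of called hnRNP genes or transcripts 150 belong to comparisons or directions with 0 calls in every alternative and say nothing of stability. Of the other 100, 79 stayed within 1.5 times the reported count and 21 did not. The depth of each library is not given, so the precision that read numbers give could not be computed.

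The replicate block gave 0 transcripts higher (2 without it) and 2 genes with higher introns (1 without it), and moved no other count by over 1.5 times. Quantile normalization gave 9 transcripts lower in place of 21. Without both libraries that stand apart 4 genes were lower in exons, 8 higher in introns and 9 lower in the ratio. Of all genes tested there 14.7%, 88.9% and 82.2% were called in these directions. Leaving out replicates or libraries gave 0 to 3 transcripts higher, 0 to 23 lower, 0 to 5 genes lower in exons, 0 to 4 higher in introns and 0 to 4 lower in the ratio. For transcripts and for exons of genes the lowest counts were reached with either replicate left out, which leaves 1 library in each group of RNA and time. For introns and the ratio they were reached without replicate 1 only, where other genes still passed. Single libraries that moved a count by over 1.5 times were labeled 15 min replicate 2 (5 genes lower in exons, 3 higher in introns, 4 lower in the ratio), labeled 60 min replicate 2 (4 higher in introns), and total 15 min and labeled 30 min of replicate 2 (1 lower in the ratio each).

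Intronic differences that were not called changed sign with rescaled and quantile-normalized introns, in that order: Hnrnpa2b1 -0.34 and -0.24, Hnrnpc -0.45 and -0.54, Hnrnpf -0.37 and -0.39, Hnrnph1 -0.27 and -0.017, Hnrnpm -0.32 and -0.34, Hnrnpu -0.40 and -0.32. That of Hnrnpd, near 0, was 0.00678 with the pseudocount of 20, 0.65 without both libraries that stand apart and 0.00040 with introns free of exons, and the exonic one of Hnrnph1 was 0.000981 after rescaling. With replicates or libraries left out, intronic differences ranged from -0.47 to 0.65 for Hnrnpc, -0.63 to 0.63 for Hnrnpd, -0.41 to 0.76 for Hnrnpf, -0.32 to 0.75 for Hnrnpm and -0.0569 to 0.38 for Hnrnpu. Ratio differences ranged from -1.10 to 0.34 for Hnrnpc, -1.23 to 0.14 for Hnrnpd, -1.20 to 0.052 for Hnrnpf and -0.88 to 0.59 for Hnrnpm. Exonic differences ranged from -0.15 to 0.088 for Hnrnph1, -0.13 to 0.28 for Hnrnpm, -0.23 to 0.14 for Hnrnph1-003, -0.034 to 0.30 for Hnrnph1-004, -0.13 to 0.36 for Hnrnpm-008 and -0.76 to 0.16 for Hnrnpd-008. The cause of these changes was not tested.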
